A study of Mus musculus with 10 samples.

Results

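The cells described here are the monocytes and early recruited myeloid cells of embryonic mouse back skin. They were picked from droplet single-cell RNA-seq libraries by their own transcripts, counted as unique molecular identifiers (UMIs), which tag each captured RNA molecule. A cell was a member if it had at least 1 UMI of Ptprc, the pan-leukocyte gene CD45, and UMIs of at least 2 of the 5 genes Ccr2, Ly6c2, Plac8, Chil3 and Lyz2. It also had to hold at most 2 UMIs of the complement genes C1qa, C1qb and C1qc together, which mark resident macrophages, and fewer than 10 UMIs of the mast cell proteases Cma1 and Cpa3. Of 55482 cells that passed the quality limits, 510 were members, or 0.919%. Members were chosen on measured values, so the levels of these genes are given as descriptions with no test.

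The 10 libraries held 3 stages of total back skin, each 1 sample of dissociated cells. At E15.5 there were 2 controls, replicates 2 and 3, and 2 MOF cKO samples, replicates 5 and 6, of genotype MOFfl/fl/K14Cre, in which Cre driven by the epithelial keratin 14 promoter deletes Mof (symbol Kat8), the acetyltransferase that modifies histone H4 lysine 16. At E16.5 there were 2 controls and 2 MOF cKO samples, replicates 1 and 2 of each. The E17.5 pair was 1 control sample and 1 QPC cKO sample of genotype QPCfl/fl/K14Cre, which lacks the respiratory complex III subunit gene Uqcrq in the epithelium. Controls were wild-type or heterozygous littermates, the mice were of mixed C57Bl/6J and CD-1 background, and the deletion was not aimed at blood cells. The study describes the latter E15.5 mutant as mosaic for the deletion. The E16.5 libraries, made with the v2 chemistry per the labels, list 27998 genes and those of the other stages 32285, so levels are compared only within a stage. No label says that replicates came from separate litters, so p-values measure only the spread between these samples.

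Classical monocytes leave the bone marrow, or the liver in the fetus, through the chemokine receptor Ccr2, which binds the ligands Ccl2 and Ccl7. They enter tissue as Ly6c2-high cells and can become macrophages, which gain C1q, or antigen-presenting cells, which gain MHC class II. Neutrophils arrive by a related route and carry granule proteins such as Ngp, Camp and Ltf. In this tissue, resident macrophages and mast cells are already seeded before birth, and recruited myeloid cells add to them after injury or infection.

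The members carried the genes of the label unevenly. Of 510 members, 446 (87.5%) had a Ccr2 UMI, 470 (92.2%) had Plac8, a small cysteine-rich protein of monocytes, 427 (83.7%) had Lyz2, lysozyme, and 236 (46.3%) had Ly6c2. Chil3, also a rule gene, was found in 9 cells. Among genes outside the rule, Tyrobp, an adaptor of myeloid receptors, was present in 506 members (99.2%), Csf1r, the macrophage colony-stimulating factor receptor, in 313 and Csf3r, the granulocyte colony-stimulating factor receptor, in 192. The T cell gene Cd3e was found in 2 members and the dendritic cell genes Flt3 and Cd209a in 66 and 37. At least 10 UMIs of S100a8 and S100a9, calcium-binding proteins of neutrophils and monocytes, were held by 102 members (20%), and at least 10 UMIs of the class II genes H2-Aa, H2-Ab1, H2-Eb1 and Cd74 by 185 (36.3%). Both were held by 21 cells. An H2-Ab1 UMI was found in 121 members (23.7%). The rule therefore gathered Ccr2 cells together with granulocyte-like and antigen-presenting cells, and the name monocyte covers only some of them.

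The cells near the limits of the rule were few on the C1q side and many on the marker side. Members with 0, 1 and 2 C1q UMIs numbered 458, 40 and 12, and cells just outside with 3, 4 and 5 UMIs numbered 6, 4 and 4. Members with 2, 3, 4 and 5 of the 5 monocyte genes numbered 133, 188, 187 and 2, while 121 cells that met the other limits had 1 such gene.

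Against all other kept cells, the genes with the largest ratio of mean level in members, as CPM (UMIs per 1000000 UMIs of the cells summed), belonged mostly to granulocytes and antigen-presenting cells. They included the neutrophil granule genes Retnlg (597 against 0.378 CPM), Olfm4, Mmp8 and Ltf, the neutrophil cystatins Stfa2l1 and Cstdc4, and the class II genes H2-Aa, H2-Eb1, H2-Ab1 and Cd74. Trem1, an amplifier of myeloid inflammation, Ifitm6, Mcemp1, Klra2, Csta2 and S100a8 were higher in members in all 10 libraries. Retnlg, Olfm4 and Ltf were each higher in only 5 of 10 libraries, so their mean levels rest on part of the libraries. These contrasts share cells with the rule and are descriptions.

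**Figure D1:**
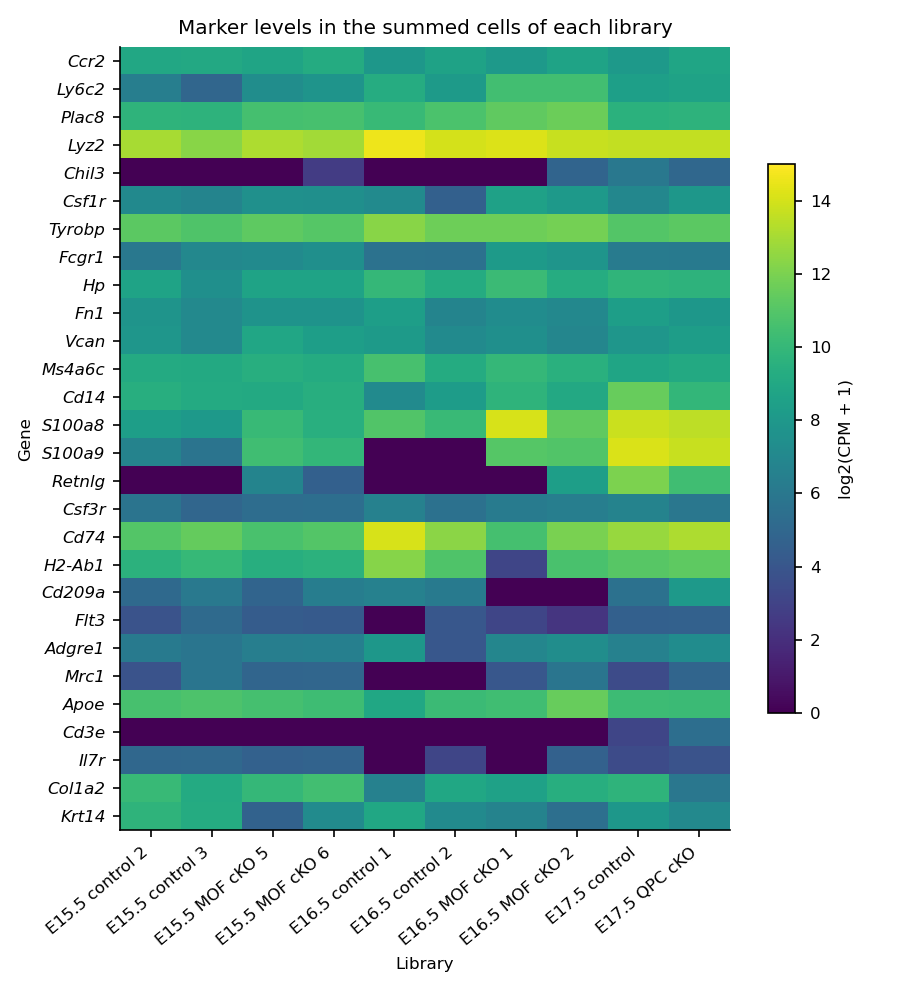
Heat map of log2(CPM + 1) for 28 genes (rows) in the summed members of each of the 10 libraries (columns). Tyrobp, Lyz2 and Plac8 were high in every library, S100a9 was at 0 in both E16.5 controls, and H2-Ab1 was at 7.90 CPM in MOF cKO replicate 1 at E16.5.

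Kept cells per library ranged from 716 to 10653 and library totals from 13609345 to 203392303 UMIs. Median UMIs per member ran from 5107 to 14130.5. No member barcode was shared between libraries, and 15 members carried mixed markers (over 2% of UMIs from keratin or from collagen genes). The targeted gene Kat8 had too few UMIs in members for a check (0 to 10 per library). In Ptprc-negative keratin cells its level was 14.5 and 13.8 CPM in the E15.5 controls and 6.91 and 10.9 CPM in MOF cKO replicates 5 and 6, and at E16.5 it was 21.7 and 16.4 CPM against 8.31 and 0 CPM. Uqcrq in such cells was 132 CPM in the E17.5 control and 26.0 CPM in QPC cKO, while members held 121 and 194 CPM.

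The first question was whether these cells made up a larger part of mutant skin. Members were 0.607% and 0.548% of kept cells in the E15.5 controls (51 of 8396 and 50 of 9117 cells) and 1.37% and 1.19% in MOF cKO (139 of 10179 and 127 of 10653). Both mutant libraries lay above both controls, and their 95% Wilson intervals, 1.16 to 1.61% and 1.0 to 1.42%, did not reach the control intervals, which ended at 0.798% and 0.722%. The mean rose from 0.578 ± 0.0417% to 1.28 ± 0.123% (SD, n = 2 each), a difference of 0.701 percentage points and a ratio of 2.21, for which the two-sided exact permutation test gave 0.333, the lowest p open to 2 against 2.

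At E16.5 the controls held 3 of 1140 cells (0.263%) and 15 of 2447 (0.613%), and MOF cKO held 38 of 716 (5.31%) and 25 of 1363 (1.83%). The mutants again lay above the controls, and the 2 mutant libraries differed from each other by more than the controls did. The mean was 0.438 ± 0.247% in controls and 3.57 ± 2.46% in MOF cKO (SD, n = 2 each), a difference of 3.13 points, and the exact permutation p was again 0.333. At least 2 of the 5 rule genes were also found in 10.8% and 7.38% of Ptprc-negative collagen cells of the E16.5 mutants, against 0.286% and 0% in the controls and at most 0.0646% in any E15.5 library. The median depth of these E16.5 collagen cells was 8763 to 12525 UMIs. The part of such RNA in the excess was not tested. With at least 3 of the 5 genes required, the share was 0.175% and 0.490% in E16.5 controls and 4.75% and 1.61% in MOF cKO. Averaged over the stages the excess was 1.92 points, and the 36 arrangements of the samples within stages gave their lowest possible exact p, 0.0556. Leaving out 1 library at a time, the difference was 0.614 to 0.788 at E15.5 and 1.40 to 4.87 at E16.5. Wilson intervals cover counting error only.

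At E17.5 the control held 32 of 5353 cells (0.598%, 0.424 to 0.843%) and QPC cKO 30 of 6118 (0.490%, 0.344 to 0.699%). The intervals overlapped, and with 1 library each there is no test.

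**Figure D2:**
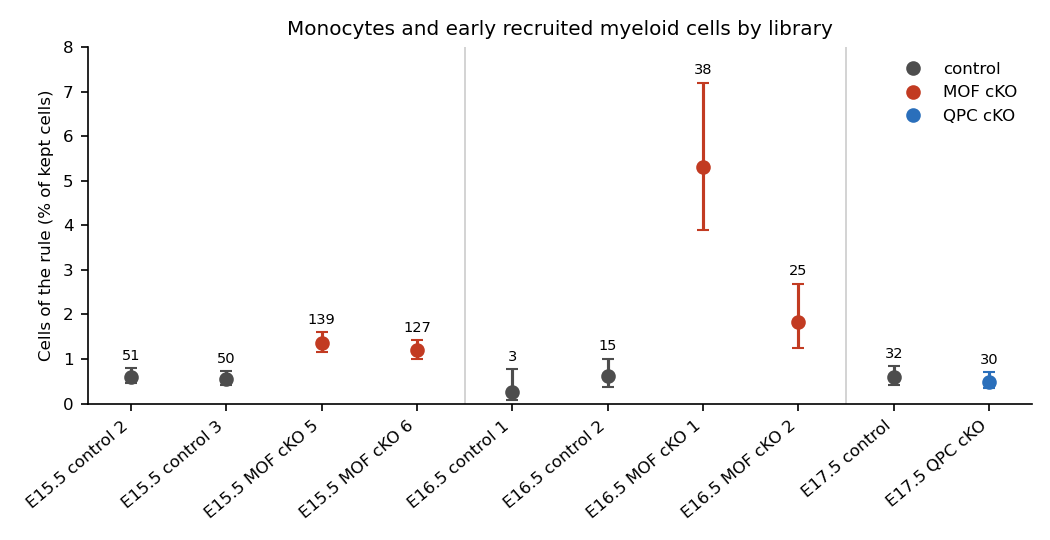
Members as a percentage of kept cells in each library, with 95% Wilson intervals and the number of members above each point. MOF cKO points lie above the control points at E15.5 (1.37 and 1.19% against 0.607 and 0.548%) and at E16.5 (5.31 and 1.83% against 0.263 and 0.613%), and the E17.5 pair overlaps.

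The share depended on what it was set against. As a part of Ptprc cells, members were 10.8% and 12.3% in the E15.5 controls and 22.4% and 19.5% in MOF cKO. At E16.5 they were 11.5% and 26.8% against 44.2% and 26.0%, so the groups overlapped (exact permutation p = 0.667). At E17.5 they were 10.7% in control and 17.6% in QPC cKO. The study reports a smaller epithelial part in MOF cKO skin. Of cells with fewer than 10 UMIs of Krt5, Krt14, Krt1 and Krt10, members were a mean of 0.785% in E15.5 controls and 1.46% in MOF cKO. The E16.5 means were 0.540% and 3.72%. At E17.5 members were 2.07% and 0.651% of such cells, so the order of the E17.5 pair turned with the denominator. Among myeloid cells that met the other limits, the part with low C1q was 60.8 ± 10.9% in E15.5 controls and 58.6 ± 3.01% in the mutants (n = 2 per group, SD; p = 1 by exact permutation). At E16.5 it was 75% in both controls and 61.3% and 39.7% in MOF cKO, a difference of −24.5 points (exact permutation p = 0.333). C1q-positive cells numbered 45 and 23 in the E15.5 controls and 90 and 98 in MOF cKO, and 1 and 5 against 24 and 38 at E16.5. Members and C1q-positive cells were thus both more numerous in the MOF cKO libraries of each stage.

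The ligands of Ccr2 were measured in kept cells without Ptprc UMIs. No other leukocyte marker was used to clear this set, so leukocytes with no captured Ptprc UMI may be in it. Ccl2 was at 15.6 and 14.6 CPM in the E15.5 controls and 36.6 and 13 CPM in MOF cKO. These groups overlapped (p = 1 by exact permutation). In the E16.5 libraries Ccl2 was at 88.5 and 23.2 CPM in controls and 502 and 208 CPM in MOF cKO, with both mutants above both controls. Ccl7 was at 3.32 and 2.28 CPM in E15.5 controls against 4.60 and 3.47 CPM, and at 16.7 and 8.54 CPM in E16.5 controls against 118 and 50.6 CPM. Over both stages the mean difference in Ccl7 was 36.5 CPM (exact permutation p = 0.0556). Ccl12, the other ligand gene, overlapped between the groups at both stages (p = 1 at each, exact permutation). Csf1, the growth factor of macrophages, went from a mean of 13.3 to 19.99 CPM at E15.5 and from 12.4 to 25.6 CPM at E16.5 (both stages, exact permutation p = 0.0556). At E17.5 Ccl2 was at 1172 CPM in control and 174 CPM in QPC cKO, and Ccl7 at 220 and 17.3 CPM.

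The 5 rule genes themselves varied among libraries. Ccr2 was at 508 and 533 CPM in the E15.5 controls and 429 and 605 CPM in MOF cKO, with the groups interleaved. Ly6c2, the antigen of newly arrived monocytes, was at 84.4 and 30.4 CPM in E15.5 controls, 161 and 214 CPM in MOF cKO, 632 and 290 CPM in E16.5 controls and 1381 and 1395 CPM in the E16.5 mutants. Plac8 was at 881 and 837 CPM against 1539 and 1587 CPM at E15.5, and at 1118 and 1694 CPM against 2583 and 3195 CPM at E16.5. Ly6c2 and Plac8 were thus higher in every MOF cKO library than in the controls of its stage, and Ccr2 was not. At E17.5 the control and QPC cKO values were 346 and 404 CPM for Ly6c2 and 753 and 843 CPM for Plac8.

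Members fell into states that the rule did not fix. The part with at least 10 UMIs of S100a8 and S100a9 was 7.84% and 4% in E15.5 controls and 14.4% and 7.09% in MOF cKO. At E16.5 it was 66.7% (2 of 3 cells) and 20% (3 of 15) in controls and 68.4% (26 of 38) and 24% (6 of 25) in MOF cKO, and at E17.5 it was 56.2% and 40%. Control and mutant libraries overlapped at both MOF stages (exact permutation p = 0.667 at each). The part with at least 10 class II UMIs was 35.3% and 48% in E15.5 controls and 26.6% and 33.1% in MOF cKO, so both mutants lay below both controls (p = 0.333 by exact permutation). The E16.5 values were 33.3% and 40% against 68.4% and 40%. With every cell thinned to 3000 UMIs the E16.5 means were 30% in controls and 19.2% in MOF cKO, the reverse order of the 36.7% and 54.2% as counted. Over both stages the exact permutation p was 0.0556 for the thinned share and 0.889 as counted. The class II sum includes Cd74. An H2-Ab1 UMI was found in 4 of 38 members of E16.5 MOF cKO replicate 1. The mean share with an H2-Ab1 UMI was 33.7% in controls and 21.2% in MOF cKO at E15.5, and 30% and 13.3% at E16.5. Over both stages its exact permutation p was 0.0556 as counted and 0.111 thinned. Any UMI of the division genes Mki67, Top2a or Cdk1 was found in 227 members (44.5%), and its share overlapped between groups at each MOF stage.

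**Figure D3:**
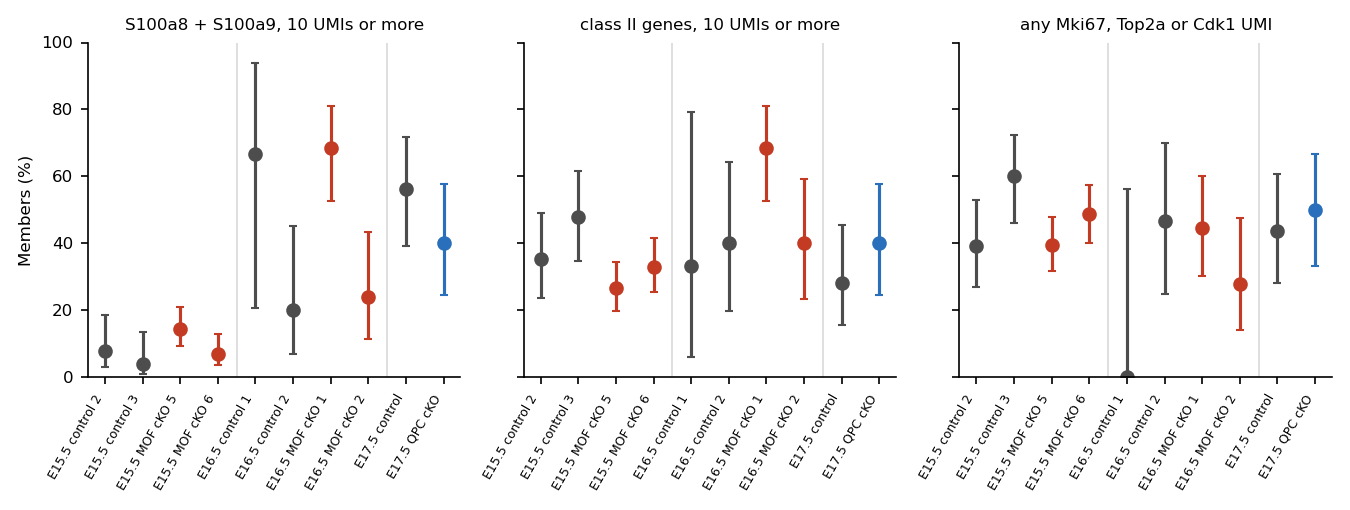
Percentage of members in each library with at least 10 UMIs of S100a8 and S100a9 (left), at least 10 class II UMIs (middle) and any UMI of Mki67, Top2a or Cdk1 (right), with 95% Wilson intervals. The S100 share is lowest at E15.5 (4 to 14.4%), and the class II share of the E15.5 mutants (26.6 and 33.1%) lies below that of the controls (35.3 and 48%).

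The gene comparisons summed the UMIs of members per library and used edgeR's quasi-likelihood test, with Benjamini-Hochberg adjustment over all genes tested. At E15.5, 28 of 8219 genes (0.341%) passed an adjusted p of 0.05, 12 higher in MOF cKO (0.146%) and 16 lower (0.195%). Leaving out 1 library gave 78 to 161 calls, each time with more genes higher than lower (114 and 47 without MOF cKO replicate 6). At E16.5, where the controls held 18 members in all, 1 of 2479 genes passed (0.0403%), and 1 to 171 without 1 library, the most without control replicate 1. With both stages in 1 fit, a test added after the data were seen, 26 of 6047 genes passed (0.430%), 16 higher (0.265%) and 10 lower (0.165%). The rule genes Plac8, at E15.5, and Ly6c2, over both stages, were among these calls and carry no weight. Both mutant libraries lay above both controls in 18.8% of all genes tested at E15.5 and 23.8% at E16.5, and below both in 19.4% and 14.1%. Gene lists are described by these counts, and the bulk sums cannot tell more cells of a state from more RNA per cell. At each stage the low-count filter asks for a minimum level in as many libraries as 1 group holds. A gene low in both libraries of 1 group passed it only through the other, which favors a separation of the groups. List counts and medians are therefore partly set by the filter. List counts without 1 library set a pair of samples against a single one, where groups separate more easily. They are therefore not read against these shares. Members of E16.5 control replicate 1 held 20579 UMIs in all, so low levels there rest on single UMIs.

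Neutrophil granule genes were called higher at E15.5, on the RNA of a few cells. Ngp, neutrophilic granule protein (chromosome 9, 110419747 to 110423012, GRCm38), was at 0 CPM in both E15.5 controls and at 256 and 160 CPM in MOF cKO. The mutant mean was 80.3 times a floor of 3 counts over the controls (adjusted p = 0.00124, edgeR). Camp, the cathelicidin antimicrobial peptide, was at 0 and 0 against 203 and 122 CPM (62.8 times that floor, adjusted p = 0.00179, edgeR). Ltf, lactoferrin, was at 0 and 0 against 91.8 and 67.9 CPM (30.8 times that floor, adjusted p = 0.00187, edgeR). These genes were not detected in either control and were found in both mutants, but in very few cells. Ngp UMIs came from 3 of 139 and 2 of 127 members, with 62.9% and 73.9% of them in a single cell, Camp came from 3 and 2 cells, and Ltf from 5 and 2. A count of 0 in 51 and 50 control members allows a share of up to 7.005% and 7.135% (Wilson), above the share in the mutants, so absence from the controls is not shown. The ratios to the floor without 1 library ran from 37.0 to 98.9 for Ngp, 28.9 to 78.3 for Camp and 14.2 to 35.4 for Ltf. Because the UMIs are clumped in single cells, these ratios are no lower bounds. The 3 genes passed the low-count filter only through the mutants, so their adjusted p-values are given as descriptions.

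Lcn2, an iron-siderophore binding protein of neutrophils, was at 0 and 1.60 CPM in the E15.5 controls and 186 and 69.9 CPM in MOF cKO (log2 fold change 7.04 ± 1.02, SE, adjusted p = 0.0197, edgeR). S100a9 was at 103 and 52.8 CPM against 1343 and 967 CPM (3.92 ± 0.28, adjusted p = 0.000355, edgeR), and S100a8 at 336 and 267 CPM against 1108 and 710 CPM (1.61 ± 0.23, adjusted p = 0.0197, edgeR). S100a9 UMIs were found in 12 of 139 and 6 of 127 mutant members and in 3 of 51 and 1 of 50 control members. The cystatins Stfa2 and Cstdc4 also rose, to means of 50.1 and 182 CPM from 0.937 and 11.1 CPM. Stfa2 UMIs came from 4 of 139 and 2 of 127 mutant members, and Stfa2 too passed the filter only through the mutants. Of 20 genes on the neutrophil list, 15 passed the low-count filter at E15.5. Ngp, Camp, Ltf, Retnlg and Lcn2 were among those that passed it only through the mutants. Nothing is therefore read from a count or median over the list. Where every member had to hold a Ccr2 UMI, the log2 changes of S100a9 and S100a8 were 0.35 and 0.04, no longer past the threshold.

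At E16.5 the one call was S100a9, at 0 and 0 CPM in controls and 2129 and 1908 CPM in MOF cKO (adjusted p = 0.0493, edgeR). The mutant mean was 99.7 times the floor of 3 counts, which is no lower bound. Without control replicate 2 that ratio was 13.8. Among members with at least 3 of the 5 monocyte genes the adjusted p was 0.0657 (edgeR). With the replicate block in the fit 0 of 2479 genes were called, and with Ccr2 required 0 of 2182. S100a9 passed the low-count filter only through the mutants. The levels of the mutants were alike and the numbers of cells behind them were not. UMIs came from 18 of 38 members in replicate 1 and 5 of 25 in replicate 2, where a single cell held 97.7%. S100a9 was also high outside the members in these libraries. Ptprc-negative keratin cells held 0.722 and 0.373 CPM in controls and 6485 and 3854 CPM in MOF cKO, and the part of this in the members' change was not tested. S100a8 was at 1944 and 1129 CPM in controls and 17417 and 2613 CPM in MOF cKO. Ngp was at 0 in both controls and in MOF cKO replicate 1, so the granule genes were not raised in both mutants at this stage. At E17.5 members of both libraries held granule genes, with Ngp at 1425 and 2159 CPM, Camp at 931 and 1005 CPM and Ltf at 753 and 861 CPM in control and QPC cKO.

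The calls over both stages included S100a9 (4.65 ± 0.50, adjusted p = 0.000525, edgeR), Cstdc4 (5.08 ± 0.76, adjusted p = 0.00635, edgeR) and Stfa2l1 (3.91 ± 0.63, adjusted p = 0.00958, edgeR). Stfa2l1 was low in every control and passed the low-count filter only through the mutants, so its adjusted p is given as a description. Slfn4, a schlafen family gene of myeloid cells, was at 1.87 and 0 CPM in E15.5 controls and 26.6 and 8.74 CPM in the mutants. At E16.5 it was at 0 and 0 CPM in controls and 92.8 and 52.1 CPM in the mutants (both stages, adjusted p = 0.0465, edgeR). Slfn4 also passed the filter only through the mutants, so its adjusted p is a description too. Every mutant library was above the controls of its stage for this gene, but without any 1 of 5 libraries (every control and MOF cKO replicate 5) its adjusted p was 0.0672 to 0.176 (edgeR). Stfa2l1 and Cstdc4 lost their calls without E16.5 control replicate 1 (adjusted p = 0.0725 and 0.0751, edgeR).

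Interferon-stimulated genes lay above both controls in most of their list at both stages, and Isg15 did so in many cells. Isg15, a ubiquitin-like protein that type I interferon induces, was at 13.1 and 20.8 CPM in the E15.5 controls and 88.5 and 44.4 CPM in MOF cKO, and at 0 and 39.2 CPM in the E16.5 controls and 628 and 489 CPM in MOF cKO. All 4 mutants lay above the controls of their stage. Isg15 passed neither stage alone (log2 1.95 ± 0.46, adjusted p = 0.187, and 4.0 ± 0.62, adjusted p = 0.189, edgeR) and was called over both (2.72 ± 0.43, adjusted p = 0.00852, edgeR). Without E16.5 control replicate 1 that change was 2.56 (adjusted p = 0.0579, edgeR). Members with an Isg15 UMI were 6 of 51, 8 of 50, 49 of 139 and 27 of 127 at E15.5, and 0 of 3, 1 of 15, 31 of 38 and 18 of 25 at E16.5. Isg15 was also higher outside the members at E16.5, with 5.57 and 0.319 CPM in collagen cells of controls and 124 and 98.1 CPM in those of MOF cKO. Its part in the members' values as free RNA was not tested.

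The upstream sequences of 4 list members are shown because the interferon-stimulated response element, the site that ISGF3 and other interferon regulatory factors bind, can be read in them. They were chosen after the values were seen. Capitals mark each match, on either strand, to the core made of GAAA, any 2 bases and GAAA again, sequences are from RefSeq GRCm38.p6, 5′ to 3′ on the strand of the gene, and each window ends just before the annotated start.
Isg15, chr4:156200819-156201068, minus strand: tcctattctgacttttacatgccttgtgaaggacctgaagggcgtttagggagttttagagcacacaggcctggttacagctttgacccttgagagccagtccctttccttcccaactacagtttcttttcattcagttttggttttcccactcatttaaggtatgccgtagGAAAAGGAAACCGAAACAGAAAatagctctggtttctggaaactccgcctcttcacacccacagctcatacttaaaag
Ifit1, chr19:34640639-34640870, plus strand: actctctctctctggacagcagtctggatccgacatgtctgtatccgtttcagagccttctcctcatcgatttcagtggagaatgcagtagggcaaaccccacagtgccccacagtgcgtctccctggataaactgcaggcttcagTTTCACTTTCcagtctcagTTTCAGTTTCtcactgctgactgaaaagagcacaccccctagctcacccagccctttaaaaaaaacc
Rsad2, chr12:26456453-26456702, minus strand: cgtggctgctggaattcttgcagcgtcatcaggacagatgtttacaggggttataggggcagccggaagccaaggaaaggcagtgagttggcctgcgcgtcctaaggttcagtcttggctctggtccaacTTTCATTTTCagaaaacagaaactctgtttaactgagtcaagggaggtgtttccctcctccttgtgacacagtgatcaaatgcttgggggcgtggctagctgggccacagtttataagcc
Cxcl10, chr5:92348890-92349139, minus strand: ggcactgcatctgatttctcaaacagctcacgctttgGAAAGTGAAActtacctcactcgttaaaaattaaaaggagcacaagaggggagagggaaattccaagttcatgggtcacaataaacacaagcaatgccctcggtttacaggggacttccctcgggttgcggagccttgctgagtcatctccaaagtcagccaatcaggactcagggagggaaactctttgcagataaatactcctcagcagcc

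Isg15 held 3 overlapping matches that began 78, 72 and 66 bases before the start, Ifit1 held 2 at 86 and 67, Rsad2 held 1 at 120 and Cxcl10 held 1 at 213. Of 32851 windows of 250 bases before annotated starts, 978 (2.98%) held the core. It was in 13 of 23 interferon-list genes (56.5%), in 3 of 30 inflammatory genes (10%) and in 0 of 18 neutrophil genes. A list gene counted if any of its windows held the core, so these shares are not on the same measure as the 2.98% of windows. A match is a run of letters and not evidence of binding.

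The genes behind these sequences followed Isg15. Ifit1, an RNA-binding antiviral protein, was at 0 and 4.80 CPM in the E15.5 controls and 16.0 and 10.8 CPM in MOF cKO, and at 0 and 15.7 CPM against 86.9 and 172 CPM at E16.5. Rsad2, the antiviral enzyme viperin, was at 3.75 and 0 CPM against 65.2 and 10.8 CPM at E15.5, and at 0 and 0 CPM against 61.2 and 44.1 CPM at E16.5. Cxcl10, a chemokine for T cells, was at 20.6 and 4.80 CPM against 35.9 and 43.0 CPM at E15.5, and at 0 and 0 CPM against 73.1 and 120 CPM at E16.5. Each was above both controls in both mutants at both stages, and none was called at a stage, where Rsad2 was too low to be tested at E16.5.

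Of 30 interferon-list genes, 25 were tested at E15.5, and 19 were above both controls and 1 below, with a median log2 change of 0.84. At E16.5, 21 were tested, of which Cxcl10 and Ifit3 were at 0 in both controls. Of the 19 others, 16 were above and 0 below, with a median of 1.77 against 0.01 for all genes seen in the controls. Genes low in both controls also passed the low-count filter only through the mutants. Among them were Ifit1 and Rsad2 at E15.5, and Isg15, Ifit1 and Ifi204 at E16.5. The counts and medians of this list are partly set by the filter and are given as descriptions. Over all tested genes of the list, Cxcl10 and Ifit3 included, 19 and 18 genes were above both controls. Leaving out 1 library gave 19 to 23 and 18 to 19 genes, leaving out the S100-marked cells gave 19 and 17, and requiring Ccr2 gave 18 and 18. No share over all genes is given for these altered sets, so these counts do not show whether the list stands out in them. Irf7, the master regulator of the type I response, was at 39.4 and 35.2 CPM against 68.5 and 64.6 CPM at E15.5, and at 0 and 78.4 CPM against 354 and 445 CPM at E16.5. Irf1 was the list's exception at E15.5, at 148 and 160 CPM in controls and 126 and 126 CPM in MOF cKO.

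The DNA-sensing HIN-200 genes on chromosome 1 were part of this pattern. Ifi211 was at 28.1 and 64.0 CPM in E15.5 controls and 147 and 122 CPM in MOF cKO, and at 48.6 and 23.5 CPM against 350 and 265 CPM at E16.5 (both stages, 1.95 ± 0.34, adjusted p = 0.016, edgeR). Ifi204 was at 41.2 and 83.3 CPM against 179 and 156 CPM, and at 0 and 47.0 CPM against 355 and 249 CPM (1.77 ± 0.33, adjusted p = 0.0278, edgeR). The Ifi204 call was lost without any 1 of 4 libraries, E15.5 control replicate 2, MOF cKO replicate 5 and either E16.5 control (adjusted p 0.0717 to 0.106, edgeR). Ifi211 lost its call without E15.5 control replicate 2 or E16.5 control replicate 1 (adjusted p = 0.0727 and 0.1, edgeR). Ifi207 was called as well (1.10 ± 0.22, adjusted p = 0.0465, edgeR), but in none of 6 fits without an E15.5 library or an E16.5 control (0.0575 to 0.244). Ifi202b, a relative of these genes, went the other way. It was at 139 and 216 CPM in the E15.5 controls and 4.66 and 1.35 CPM in MOF cKO (−5.84 ± 0.41, adjusted p = 0.000355, edgeR), in 34 of 51 and 34 of 50 control members and 5 of 139 and 2 of 127 mutant members. The split was the same in C1q-positive cells, at 299 and 134 CPM against 0.722 and 1.33 CPM, but not in kept cells without Ptprc, at 3.55 and 12.1 CPM against 35.9 and 15.46 CPM. Ifi202b had 0 UMIs in members of every E16.5 and E17.5 library, controls included. The mice were of mixed background, and the part of inherited differences between embryos in the values of these chromosome 1 genes was not tested.

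**Figure D4:**
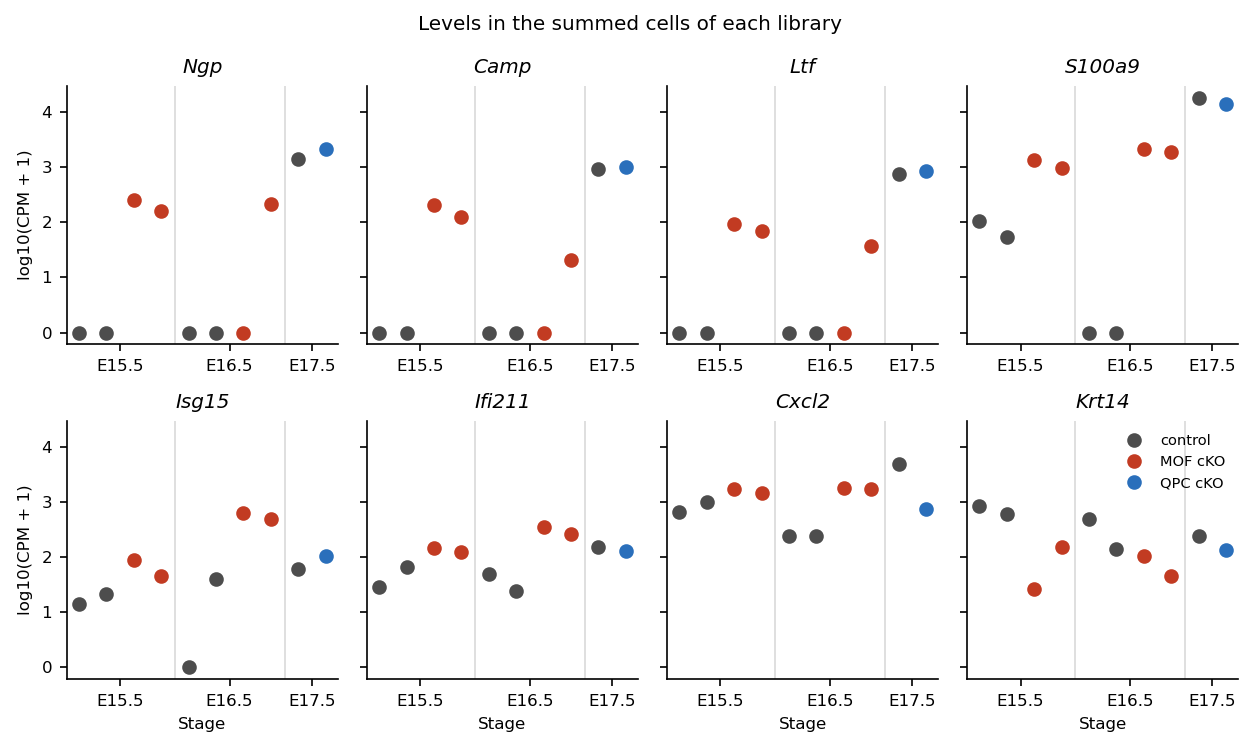
Levels of 8 genes as log10(CPM + 1) in the summed members of each library, by stage (points; grey control, red MOF cKO, blue QPC cKO). Ngp, Camp and Ltf are at 0 in the E15.5 controls and above 0 in both E15.5 mutants, Isg15 and Cxcl2 are above the controls in all 4 MOF cKO libraries, and Cxcl2 is lower in QPC cKO.

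Many chemokine and cytokine genes lay above both controls in both mutants, with no gene called at either stage. Cxcl2, which draws neutrophils, was at 654 and 1009 CPM in the E15.5 controls and 1701 and 1436 CPM in MOF cKO (0.92 ± 0.21, adjusted p = 0.163, edgeR). At E16.5 it was at 243 and 243 CPM against 1805 and 1700 CPM (2.81 ± 0.39, adjusted p = 0.186, edgeR), and over both stages its adjusted p was 0.0527. Ccl3, a ligand of Ccr1, was at 171 and 501 CPM against 862 and 582 CPM, and at 97.2 and 141 CPM against 442 and 693 CPM. Both genes separated the groups at both stages. In E16.5 collagen cells Cxcl2 moved the same way, at 113 and 26.6 CPM in controls and 562 and 310 CPM in MOF cKO, and its part in the members' values was not tested. Il1b, the inflammasome-processed cytokine, was at 521 and 583 CPM against 797 and 420 CPM at E15.5, where the groups overlapped, and at 875 and 910 CPM against 2463 and 1587 CPM at E16.5. Tnf was at 15 and 9.61 CPM against 39.3 and 25.6 CPM at E15.5.

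On the chemokine and cytokine list, 25 of 34 genes were tested at E15.5, with 11 above both controls and 0 below, and of 13 seen in the E16.5 controls, 10 were above and 0 below. Their median log2 changes were 0.58 and 1.44. Without 1 library the E15.5 count was 12 to 19, the highest without MOF cKO replicate 6. On the inflammatory and NF-kB list, 15 of 36 were above and 1 below at E15.5, and 17 of 31 above and 0 below at E16.5, with medians of 0.25 and 1.24. Without 1 library a pair of samples is set against a single one, where groups separate more easily. The counts above were then 19 to 25 at E15.5, the highest without MOF cKO replicate 6, and 17 to 26 at E16.5, the highest without control replicate 1. Without the S100-marked cells the E16.5 count was 11, with no share over all genes given for that set. Ier3, an early response gene of this pathway, was at 399 and 387 CPM against 803 and 522 CPM at E15.5, and at 243 and 86.2 CPM against 999 and 1255 CPM at E16.5. Ptgs2, the prostaglandin synthase COX-2, was at 202 and 216 CPM against 323 and 263 CPM at E15.5. At E16.5 it was at 48.6 and 23.5 CPM against 150 and 136 CPM. Low in both E16.5 controls, Ptgs2 passed the low-count filter there only through the mutants. A UMI in a control does not exclude this for other genes of the chemokine and inflammatory lists. The E16.5 counts and medians of these lists are therefore descriptions. Slc7a11, the cystine importer, was called over both stages (1.34 ± 0.28, adjusted p = 0.0493, edgeR). Slfn1, another schlafen gene, was also called (1.60 ± 0.28, adjusted p = 0.0158, edgeR). Leaving out 1 library raised the adjusted p of Slc7a11 to between 0.0631 and 0.165 in 6 of the 8 cases, and that of Slfn1 to between 0.0526 and 0.0901 without E15.5 control replicate 3, MOF cKO replicate 5 or E16.5 control replicate 1 (edgeR).

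Several genes of monocyte identity outside the rule were also measured. Csf1r was at 137 and 109 CPM against 183 and 180 CPM at E15.5, and at 146 and 23.5 CPM against 379 and 265 CPM at E16.5. Fcgr1, the high-affinity Fc receptor CD64, was at 63.7 and 127 CPM against 144 and 176 CPM, and at 48.6 and 47.0 CPM against 288 and 224 CPM. Spi1, the lineage factor PU.1, was at 227 and 194 CPM against 343 and 328 CPM at E15.5, and the groups overlapped at E16.5. None of these genes passed the test at either stage. On the monocyte list without the rule genes, 10 of 20 were above both controls and 1 below at E15.5, and 7 of 20 above and 0 below at E16.5, with median log2 changes of 0.28 and 0.16. On the list of myeloid transcription factors 7 of 20 were above and 1 below at E15.5, and 2 of 14 above and 4 below at E16.5, with medians of 0.12 and −0.32. On the lysosome and phagocytosis list, 17 of 31 were above and 0 below at E15.5, and 12 of 26 above and 2 below at E16.5. On the tissue macrophage list, 2 of 10 were above and 3 below at E15.5, and 4 of 5 above and 0 below at E16.5, with medians of −0.23 and 1.27.

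Class II genes lay below both controls at E16.5, and far below in 1 library. H2-Ab1 was at 5054 and 1874 CPM in the E16.5 controls and 7.90 and 1668 CPM in MOF cKO replicates 1 and 2, and H2-Aa at 5734 and 1803 CPM against 9.87 and 1367 CPM. Cd74, the invariant chain, was at 17785 and 5418 CPM against 1556 and 4044 CPM. None of these genes was called. The control levels rest on few cells: in replicate 1 a single cell of 3 held all 104 H2-Ab1 UMIs, in replicate 2 a single cell held 48.1%, and in MOF cKO replicate 2 it was 65.4%. MOF cKO replicate 1 was almost without the class II chains while it kept Cd74, and 18 of its 38 members held both at least 10 S100 UMIs and at least 10 class II-list UMIs, or 5 of 38 with each cell thinned to 3000 UMIs. At E15.5 H2-Ab1 was at 793 and 1038 CPM against 669 and 793 CPM, and the groups overlapped. Of 12 dendritic cell genes tested at E15.5, 0 were above both controls and 2 below, and at E16.5, 0 of 5 were above and 4 below, with medians of −0.32 and −1.97. On the antigen presentation list, which also holds class I genes, 6 of 16 were above and 1 below at E15.5. At E16.5, 3 of 13 were above and 6 below.

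**Figure D5:**
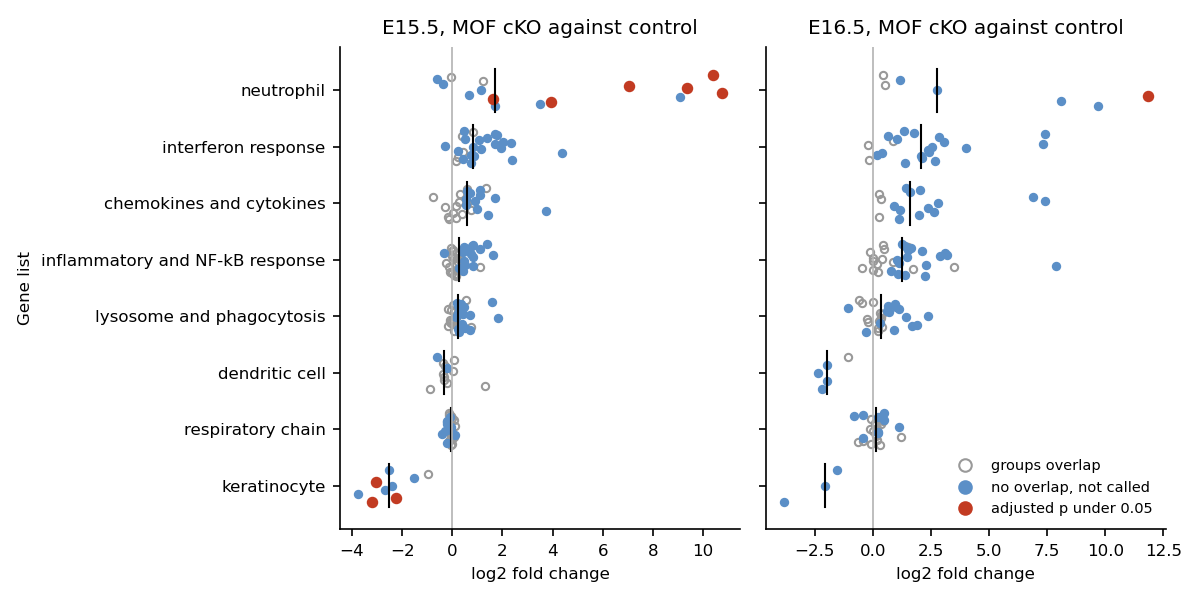
Log2 fold change, MOF cKO against control, of each tested gene on 8 lists at E15.5 (left) and E16.5 (right). Open grey points overlap between groups, blue points do not overlap and red points passed an adjusted p of 0.05. Black bars are medians over all tested genes of a list, including genes at 0 in both controls. They are −2.53 and −2.04 for keratinocyte genes and 0.84 and 2.05 for interferon genes. Without genes at 0 in both controls the E16.5 interferon median is 1.77. It still includes genes low in both controls that passed the low-count filter only through the mutants. Nothing is read from the neutrophil medians.

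Several of the falls called at E15.5 were of epidermal genes, which leukocytes do not make. Krt14, the basal keratin, was at 847 and 610 CPM in members of the E15.5 controls and 25.3 and 152 CPM in MOF cKO (−3.06 ± 0.52, adjusted p = 0.0493, edgeR). Dsp, desmoplakin of desmosomes, was at 86.2 and 56.0 CPM against 8.65 and 4.71 CPM (−3.37 ± 0.38, adjusted p = 0.00335, edgeR), and Lgals7, the epidermal galectin-7, at 240 and 325 CPM against 24.0 and 53.8 CPM (−2.87 ± 0.30, adjusted p = 0.00201, edgeR). The differentiation genes Krtdap, Sfn, Perp and Dmkn were called lower too, with log2 changes of −2.98, −2.89, −2.23 and −2.21. Krt14, Lgals7, Dsp and Perp were also lower in Ptprc-negative collagen cells of both mutants than in those of both controls. In these collagen cells, Krt14 was at 108 and 73.4 CPM in controls and 13.2 and 46.6 CPM in MOF cKO, in 48.0%, 56.3%, 8.53% and 30.2% of cells, against 47.1%, 54%, 10.1% and 26.0% of members. The shares in members were close to those in collagen cells of the same library, while the level was higher in members, and the part of free RNA in the difference was not tested. Single members held 74.3%, 42.8%, 42.1% and 81.0% of the Krt14 UMIs in these libraries, so a few cells with much keratin RNA added to the level. The median depth was 8113 to 10286 UMIs in members and 11642.5 to 14540 UMIs in collagen cells.

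Summed over the keratinocyte list, members held 1906 and 1857 CPM in E15.5 controls, 122 and 469 CPM in MOF cKO, 1118 and 572 CPM in E16.5 controls and 296 and 220 CPM in the E16.5 mutants. Of 9 genes tested at E15.5, 8 were below both controls, 3 were called lower and the median log2 change was −2.53. At E16.5 all 3 tested genes were below both controls. Over both stages 4 of 7 were called, and Lgals7 (−2.74 ± 0.27, adjusted p = 0.000368, edgeR) and Lor, the cornified envelope protein loricrin (−3.71 ± 0.54, adjusted p = 0.00551, edgeR), were among all 10 falls called. Lor missed the threshold without E16.5 control replicate 1 (adjusted p = 0.0614, edgeR). Embryonic globins were called higher at E15.5, with Hbb-y at 1.87 and 4.80 CPM against 217 and 1301 CPM, of which single cells held 96.3% and 83.8% in the mutants. The erythroid and platelet list summed to 27076 and 33330 CPM against 50932 and 18084 CPM, with no separation between the groups. Mcpt8, a basophil protease, was at 0 and 30.4 CPM against 174 and 129 CPM at E15.5, in 0 of 51, 3 of 50, 15 of 139 and 10 of 127 members (both stages, 3.21 ± 0.60, adjusted p = 0.0278, edgeR), a call lost without E15.5 control replicate 2, MOF cKO replicate 5 or E16.5 control replicate 1 (adjusted p 0.0844 to 0.145, edgeR). Trbc2, a T cell receptor segment, was called lower, at 82.5 and 68.9 CPM against 18.6 and 22.9 CPM. Its UMIs came from 4 of 51, 5 of 50, 6 of 139 and 3 of 127 members. Single cells held 47.7% and 46.5% of them in the controls and 35.7% and 41.2% in the mutants.

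Homing receptors and metabolic genes had no call at either stage. Itgb2, the leukocyte integrin CD18, was at 58.1 and 62.4 CPM against 96.5 and 93.5 CPM at E15.5, and C5ar1, the complement C5a receptor, at 24.4 and 16.0 CPM against 39.3 and 39.0 CPM. C5ar1 was at 48.6 and 15.7 CPM against 124 and 80.2 CPM at E16.5, so it separated the groups at both stages, with no call. Members of E16.5 control replicate 1 held 20579 UMIs in all, so 48.6 CPM there is 1 UMI, as for Fcgr1 and Ptgs2. On the homing and adhesion list 10 of 26 genes were above both controls and 3 below at E15.5, and 7 of 21 above and 2 below at E16.5. Glycolysis genes were above in 10 of 22 and below in 2 at E15.5, and above in 6 of 14 and below in 0 at E16.5. Respiratory chain genes were above in 1 of 26 and below in 11 at E15.5, with a median log2 change of −0.06, and above in 6 of 25 and below in 3 at E16.5.

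The response of members was also set against that of the C1q-positive cells of the same libraries. At E15.5, 4 of 8795 genes (0.0455%) had a different MOF cKO change in the 2 populations, which were the globins Hba-a1, Hba-a2 and Hbb-bs and the rule gene Lyz2, named after their values were seen. As a rule gene, Lyz2 carries no weight here. At E16.5, 20 of 3348 genes (0.597%) did.

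The stages were compared by an interaction term, and 0 of 6724 genes passed in edgeR, where 455 had an unadjusted p below 0.05, and DESeq2 called 3. Larger fold changes at E16.5 than at E15.5, as for Isg15 and Cxcl2, were therefore not shown to differ between the stages.

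At E17.5 there was 1 library in each group, so genes were described by whether the 95% exact Poisson intervals of their CPM overlapped. These intervals cover counting error only, not the spread between cells or samples. Of 7307 genes with enough UMIs, 267 were higher in QPC cKO (3.65%) and 335 lower (4.58%). Inflammatory genes were lower in members of QPC cKO. Cxcl2 was at 4805 CPM in control and 731 CPM in QPC cKO, Il1b at 3314 and 1316 CPM and Cd14, the endotoxin co-receptor, at 2919 and 993 CPM. Cxcl1, a related neutrophil chemokine, was at 364 and 37.5 CPM, Il1rn, the interleukin-1 receptor antagonist, at 237 and 33.1 CPM and Acod1, which makes itaconate, at 96.8 and 2.21 CPM. Areg, Saa3 and Csf3 were at 125, 103 and 101 CPM in control and at 0 in QPC cKO.

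On the inflammatory and NF-kB list 26 of 37 genes were lower and 1 higher, with a median log2 ratio of −1.20 against 0.15 for all genes. On the chemokine and cytokine list 14 of 26 were lower and 0 higher, with a median of −1.32. The exception on the first list was Ifitm1, an interferon-induced membrane protein, at 65.2 CPM in control and 693 CPM in QPC cKO. Cxcl2 also differed in collagen cells, at 2152 and 374 CPM, and its part in the members' difference was not tested. The fibroblast list had 6 of 6 genes lower, Col1a2 at 858 and 59.6 CPM and Lum at 314 and 15.45 CPM among them. In the control, 1 cell held 148 of the 159 Lum UMIs (93.1%) and 1 cell held all 36 Twist2 UMIs.

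Some genes of dendritic and lymphoid cells were higher in QPC cKO. Cd209a, a lectin of monocyte-derived dendritic cells, was at 47.4 CPM in control and 280 CPM in QPC cKO, Mgl2, a lectin of dermal dendritic cells, at 51.4 and 243 CPM and Clec10a at 37.6 and 117 CPM. Ciita, the class II transactivator, was at 1.98 and 33.1 CPM, and H2-Eb1 at 1945 and 2554 CPM. In all, 6 of 13 dendritic cell genes were higher and 0 lower. Xcl1, a chemokine of natural killer and T cells, was at 0 and 141 CPM, and Nkg7, a cytotoxic granule gene, at 0 and 92.7 CPM, and on the lymphoid list 5 of 11 genes were higher and 2 lower. UMIs of at least 3 lymphoid genes were found in 3 of 32 control and 4 of 30 QPC cKO members.

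Some division and neutrophil genes were lower in QPC cKO. Mki67 was at 158 CPM in control and 26.5 CPM in QPC cKO, and Top2a at 233 and 37.5 CPM. On the G2/M list 10 of 19 genes were lower and 0 higher. The share of members with any Mki67, Top2a or Cdk1 UMI was 43.8% and 50% as counted, and 28.1% and 13.3% with cells thinned to 3000 UMIs. Retnlg, a resistin-like gene of mature neutrophils, was at 4148 and 1360 CPM, in 10 of 32 and 4 of 30 members. S100a9 was at 18193 and 13792 CPM and S100a8 at 14046 and 11785 CPM. Ngp went the other way, at 1425 and 2159 CPM in 8 of 32 and 3 of 30 members, where single cells held 56.6% and 39.3% of its UMIs, and 7 of 17 neutrophil genes were lower and 2 higher. The interferon list had 5 of 26 genes higher and 2 lower, with Cxcl10 at 73.1 and 6.62 CPM among the latter.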

How the data were processed

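The authors deposited filtered droplet matrices of UMI counts per gene and cell, made with Cell Ranger on mm10 (the submitters' processing notes list versions 1.3.1 and 6.1.2, with no stage given). Kept cells had more than 1000 and fewer than 6000 detected genes, and less than 10% of their UMIs were mitochondrial. No doublet caller was run, and members with mixed markers were left out in an alternative. Members and gene lists were chosen with earlier results of these data known. Mixed markers meant over 2% of UMIs from keratin or from collagen genes. Collagen cells and keratin cells were kept cells without Ptprc with over 2% of collagen or keratin UMIs. UMIs of members were summed per library and tested with edgeR 4.0.16 (filterByExpr, TMM) in R 4.3.3, with DESeq2 1.42.0 as an alternative. CPM are UMIs per 1000000 UMIs of the cells summed. Shares were tested by exact permutation over samples in SciPy 1.17.1. Named genes were list genes, the 8 largest rises and falls per stage with a mean of at least 50 CPM among genes past an adjusted p of 0.05 or, failing that, by smallest p, and the 20 genes highest against other cells, with hemoglobin, mitochondrial, Xist, Tsix and Y-linked genes left out of the ranking. The 4 promoters, the globin, Trbc2 and both-stage genes were named after their values were seen. The study describes pairs of samples with littermate controls, and no label says which E16.5 samples form a pair. Simulated data served as a check of the edgeR step. Cell numbers set the precision: E16.5 controls rest on 3 and 15 members. A few genes are not reported here.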

Additional observations from a re-analysis of the deposited data

Results flagged for a closer look

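At E16.5, the change between MOF cKO and control differed between members and the C1q-positive cells of the same libraries for 10 listed genes, tested with an edgeR interaction term over 3348 genes, of which 20 passed (0.597%). The C1q-positive cells of the controls rest on 1 and 5 cells, and the members of those controls on 3 and 15. Each value is the log2 change in members minus that in C1q-positive cells. For Cxcl2 it was 3.404 (adjusted p = 4.39e-07, edgeR), with a change of 2.81 in members and −0.50 in C1q-positive cells. For Ccl3 it was 3.43 (adjusted p = 0.000341, edgeR), with 2.04 and −1.19. For Ccl4, a chemokine close to Ccl3, it was 2.94, for Ier3 2.69, for Cd14 2.22 and for Apoe, apolipoprotein E, 1.26. The other 4 went the other way. For Cd74 it was −3.11 (adjusted p = 0.000167, edgeR), with −1.96 in members and 1.41 in C1q-positive cells. For Cd63, a tetraspanin of lysosomes, it was −3.11, for Lum, a fibroblast proteoglycan, −9.51, and for Ube2c, a mitosis gene, −9.16. The last 2 are fitted values of genes near the floor in 1 of the populations and are no measure of size.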

How the results depend on the processing

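The mean share of members stayed higher in MOF cKO under every alternative run, though at E16.5 the groups overlapped among Ptprc cells. This includes thinning each cell to 3000 UMIs (0.530 points at E15.5 and 1.57 at E16.5). The C1q-low part of myeloid cells at E15.5 differed by −2.24 points, and by −9.92 to 5.45 without 1 library (5.45 without control replicate 3). At E16.5 the range was −35.3 to −13.7, and over both stages −18.8 to −7.97. Alternatives that required Ccr2, refitted both stages or left out genes at 0 in both controls were chosen after seeing the data. Gene counts moved most. At E15.5, 28 calls became 211 with no filter on low counts, 18 without S100-marked cells, 13 with at least 3 of 5 monocyte genes, 13 with Ccr2 required and 78 to 161 without 1 library. At E16.5, 1 call became 15 with library size alone, 11 in DESeq2, 93 with no filter, 9 without S100-marked cells, 8 with no C1q UMI, 0 with at least 3 genes (202 at an unadjusted p under 0.05 in edgeR), 0 with Ccr2 required (181) and 1 to 171 without 1 library, the last without control replicate 1, which held 3 members. With the replicate block in the E16.5 fit, 0 genes were called in edgeR (151 at an unadjusted p under 0.05), and the adjusted p of S100a9 was 0.212. No label says which samples form a pair. The correlation of deviations between same-numbered E16.5 libraries was 0.0153 over 2479 genes. With 3 members in control replicate 1 it cannot show whether the numbers mark pairs. E15.5 groups share no number. The stage interaction went from 0 to 3 in DESeq2, 53 with no filter and 0 to 43 without 1 library. The 26 calls over both stages ranged from 13 (without E16.5 control replicate 1) to 71 (without E16.5 MOF cKO replicate 2). The 602 genes apart at E17.5 became 364 without S100-marked cells and 400 with at least 3 genes. Without 1 library, counts of list genes above the controls set a pair of samples against a single one, where groups separate more easily. They ranged from 19 to 25 at E15.5 and 17 to 26 at E16.5 for inflammatory genes, 12 to 19 at E15.5 for chemokines and cytokines, and 19 to 24 and 13 to 20 for lysosome genes. Without S100-marked cells there were 11 inflammatory genes at E16.5 and 0 and 3 neutrophil genes at E15.5 and E16.5 (11 and 5 in all members, 7 and 2 without genes at 0 in both controls), and with Ccr2 required 1 neutrophil gene at E15.5. Lum at E16.5 reversed to 1.88 without S100-marked cells. The cause of these shifts was not tested. No share over all genes is given for the altered cell sets, so their list counts are not read against a background. Of 196 values for 16 genes named at E15.5, 178 kept direction and side of the threshold and 18 lost the call. Of 209 values for 16 genes at E16.5, 138 kept both, 2 lost the call, 68 newly passed the threshold and 1 reversed, and of 241 values for 25 genes named over both stages, 171 kept the call and 70 lost it.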
